A study of Homo sapiens with 45 samples.

Results

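The 10 genes described here are linked in textbooks to quiescence, the resting state of a cell outside the cycle, or to the FOXO transcription factors: PIK3IP1, DYRK1A, DYRK1B, CCNG2, FOXO1, FOXO3, FOXO4, TXNIP, YPEL3 and BTG2. They were taken by symbol from the 29159 genes in the count tables of 3 neuroblastoma lines, and all 10 were found in each table. PIK3IP1 and DYRK1B were chosen by their levels in these libraries, higher after 24 h of palbociclib than in control, so the 24 h comparison is given as a description, and for these 2 genes no p-value is printed and calls are given as a description.

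Palbociclib (PB) inhibits CDK4 and CDK6, the kinases that work with D cyclins to phosphorylate RB and let a cell pass from G1 into S phase. SH-SY5Y (ALK mutant), IMR-32 and SK-N-BE(2)C (both with amplified MYCN and loss of 1p) are established lines of the adrenergic (ADRN) type, a neuroblastoma cell state with sympathetic features. Each was grown as a control, with 1 μM PB for 24 h, or with 1 μM PB for a longer time of 5 d in SH-SY5Y and IMR-32 and 7 d in SK-N-BE(2)C, and polyA RNA was sequenced from 5 replicates of each group, 45 libraries in all. Replicates were different passages of 1 line plated independently. Controls were collected with the 24 h cells, so time in culture also separates the longer treatment from control, and 7 d against 5 d cannot be told apart from the line.

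FOXO proteins are transcription factors that AKT, a kinase downstream of PI3K, phosphorylates and holds in the cytoplasm. When PI3K and AKT signalling is low they enter the nucleus and activate genes of cell-cycle arrest, stress resistance and autophagy, and CCNG2 and TXNIP have been described among genes that FOXO factors can activate. DYRK1A and DYRK1B are related kinases, and DYRK1A phosphorylates LIN52 to assemble DREAM, the complex that represses cell-cycle genes in resting cells.

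The promoters of TXNIP, DYRK1B, CCNG2 and PIK3IP1 are shown because these genes had a higher mean in every treated group than in control and represent both time courses described below. Up to 250 bases upstream of the main transcription start were read from GRCh37, the build of the files (hg19), without any base inside the annotated gene (GENCODE release 44). Capitals mark matches, on either strand, to the forkhead motif TGTTTAC (reverse GTAAACA), the E-box CACGTG and the CCAAT box (reverse ATTGG), and each sequence runs 5′ to 3′ toward the gene.
TXNIP, chr1:145438240-145438489, plus strand: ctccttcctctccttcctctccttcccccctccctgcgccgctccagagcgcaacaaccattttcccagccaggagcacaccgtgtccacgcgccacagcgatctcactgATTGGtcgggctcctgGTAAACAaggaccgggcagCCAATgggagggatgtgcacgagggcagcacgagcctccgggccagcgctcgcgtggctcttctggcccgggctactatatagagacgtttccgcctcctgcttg
DYRK1B, chr19:40324842-40325052, minus strand: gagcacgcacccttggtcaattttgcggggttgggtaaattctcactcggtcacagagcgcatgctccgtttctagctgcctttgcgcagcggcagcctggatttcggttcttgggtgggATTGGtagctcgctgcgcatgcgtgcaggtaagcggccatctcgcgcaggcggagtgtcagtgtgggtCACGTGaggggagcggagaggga
CCNG2, chr4:78078110-78078359, plus strand: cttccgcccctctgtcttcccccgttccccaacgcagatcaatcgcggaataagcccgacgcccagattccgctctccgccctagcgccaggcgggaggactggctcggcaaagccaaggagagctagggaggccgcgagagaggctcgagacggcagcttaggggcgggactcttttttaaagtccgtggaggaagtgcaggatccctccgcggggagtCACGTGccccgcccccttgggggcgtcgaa
PIK3IP1, chr22:31688521-31688724, minus strand: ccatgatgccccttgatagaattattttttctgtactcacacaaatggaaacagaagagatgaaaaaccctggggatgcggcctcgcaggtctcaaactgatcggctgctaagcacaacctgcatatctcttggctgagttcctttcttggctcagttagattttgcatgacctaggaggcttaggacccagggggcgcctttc

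TXNIP was the only 1 of the 10 genes with the forkhead letters in the 250 bases upstream of its start. They lay 124 bases upstream, between CCAAT boxes 140 and 105 bases upstream, and the same letters occurred in 2.06% of 19862 promoter windows of that length. The E-box letters were found in 3 members, 62 bases upstream of DYRK1B, 30 upstream of CCNG2 and 179 upstream of DYRK1A, against 7.88% of all windows. Distances count from the main transcription start. For DYRK1B and PIK3IP1 that start lies inside the annotated gene, so their printed sequences end before it. CCAAT letters were found in DYRK1B, FOXO1, TXNIP, YPEL3 and BTG2, and in 34.3% of all windows. The CHR letters TTTGAA (reverse TTCAAA), a motif of cell-cycle genes that DREAM binds, were found in none of the 10 windows and in 10.1% of all. PIK3IP1 held none of these letters. A match shows only that the letters are there, and no match says nothing of what binds.

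Libraries held 13459219 to 25441812 counts. The summed level of 8 adrenergic markers was 2143 to 7829 CPM (counts scaled to the library total), against 265 to 1851 for 7 mesenchymal markers and 5.87 to 141 for 6 markers of other cell types. Of the latter, PTPRC (leukocytes) and PECAM1 (endothelium) had at most 3 and 1 counts in any library. COL1A1 and CD68 passed the filter on low counts in every line, and EPCAM and GFAP in SK-N-BE(2)C alone. IMR-32 replicate 5 stood apart in all 3 of its groups. Its log2 levels over all genes correlated with the other replicates at a mean r of 0.960 (control), 0.959 (24 h) and 0.975 (5 d), against 0.976 to 0.988 for the other 12 IMR-32 libraries. The members' fold changes in IMR-32 against control are given below also without it, and those of other genes only with it. In replicate 5 the summed level of 10 genes of cycling cells was 3758 CPM in the control, against 2485 to 2828 in replicates 1 to 4. Its mesenchymal sum was 1081 CPM in the control, against 576 to 613, and 910 at 24 h, against 480 to 570. Its adrenergic sum in the control was 2143 CPM, against 2637 to 3136.

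The groups of a line were compared on their counts with the quasi-likelihood test of edgeR. A gene is called when its p-value, after Benjamini-Hochberg adjustment over all genes tested, is under 0.05 and its log2 fold change is over 0.5 in size. All 10 genes passed the filter on low counts in SH-SY5Y and SK-N-BE(2)C and 9 did in IMR-32, where FOXO1 was too low.

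At 24 h, 4 of 10 members were called higher in SH-SY5Y, 6 of 9 in IMR-32 and 6 of 10 in SK-N-BE(2)C, where 10.5%, 7.87% and 10.9% of all genes tested were. FOXO1 was called lower in SK-N-BE(2)C, where 10.6% of all genes were, and no member was in SH-SY5Y or IMR-32 (11.0% and 10.5% of all genes). Every 24 h library was above every control for 5 members in SH-SY5Y, 4 in IMR-32 and 6 in SK-N-BE(2)C, beside 20.4%, 9.26% and 21.2% of all genes, and below for DYRK1A in SH-SY5Y, beside 18.1%. Without the fold limit 9 of 10 SH-SY5Y members had an adjusted p under 0.05, as did 49.2% of all genes in edgeR. Because the list was drawn up from this comparison, nothing is read from these counts.

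Against control, the longer treatment had 7 of 10 members called higher in SH-SY5Y (18.6% of all genes tested), 6 of 9 in IMR-32 (16.6%) and 8 of 10 in SK-N-BE(2)C (24.5%). FOXO1 was again called lower in SK-N-BE(2)C, where 22.3% of all genes were, but nothing is read from this call, since FOXO1 passed the filter there through its controls, and no member was called lower in SH-SY5Y or IMR-32 (17.3% and 15.5% of all genes). Every library of the longer treatment was above every control for 7, 6 and 9 members in SH-SY5Y, IMR-32 and SK-N-BE(2)C, beside 27.0%, 19.7% and 26.8% of all genes. The median log2 fold change of the members was 0.88, 0.78 and 1.92, beside 0.01, 0.00 and 0.01 over all genes. This comparison uses the same control libraries as the 24 h comparison.

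Of the mesenchymal neuroblastoma markers tested, 5 of 7 were called lower with longer treatment in SH-SY5Y, 4 of 5 in IMR-32 and 4 of 6 in SK-N-BE(2)C. Of all genes tested, 17.3%, 15.5% and 22.3% were called lower. In SK-N-BE(2)C FOSL1 was among those called lower. It passed the filter there through its control and 24 h libraries, so nothing is read from its call. FOSL1 was called higher in SH-SY5Y and FN1 in SK-N-BE(2)C, beside 18.6% and 24.5% of all genes. The sum of the mesenchymal markers was 1401 to 1851 CPM in control and 921 to 1092 with longer treatment in SH-SY5Y. It was 576 to 1081 and 265 to 440 in IMR-32, and 615 to 833 and 398 to 698 in SK-N-BE(2)C. The IMR-32 control at 1081 CPM was replicate 5. The sum of the markers of other cell types went from 78.3 to 141 CPM in the IMR-32 controls to 23.6 to 36.8 at 5 d, while it was 25.2 to 58.1 and 18.1 to 44.8 in SH-SY5Y, and 11.8 to 21.5 and 5.87 to 12.6 in SK-N-BE(2)C. Of these markers, COL1A1 was called lower in IMR-32 and SK-N-BE(2)C, and CD68 lower in SH-SY5Y and SK-N-BE(2)C, against the same shares of all genes. CD68 was called higher in IMR-32, beside 16.6% of all genes. EPCAM was called higher in SK-N-BE(2)C, but it passed the filter there through its 7 d libraries, so nothing is read from its call. The part of these markers in the members' changes was not tested.

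Against 24 h, the longer treatment had 3 of 10 members called higher in SH-SY5Y (10.5% of all genes), 0 of 9 in IMR-32 (10.8%) and 6 of 10 in SK-N-BE(2)C (17.5%). BTG2 was called lower in SH-SY5Y (6.23% of all genes), and no member in IMR-32 (8.86%) or SK-N-BE(2)C (14.4%). Every library of the longer treatment was above every 24 h library for 5, 0 and 7 members in SH-SY5Y, IMR-32 and SK-N-BE(2)C, beside 15.8%, 14.1% and 19.1% of all genes, and below for BTG2 in SH-SY5Y, beside 8.93%. Without the limit on the fold change, edgeR gave 2 of 9 IMR-32 members an adjusted p under 0.05 (34.4% of all genes), FOXO3 upward and FOXO4 downward. With the replicate number as a block, FOXO3 and FOXO4 stayed under 0.05 (edgeR adjusted p = 7e-04 and 0.00544), and BTG2, downward, joined them (0.00644). The plot of fold changes sets the 3 comparisons side by side.

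**Figure D1:**
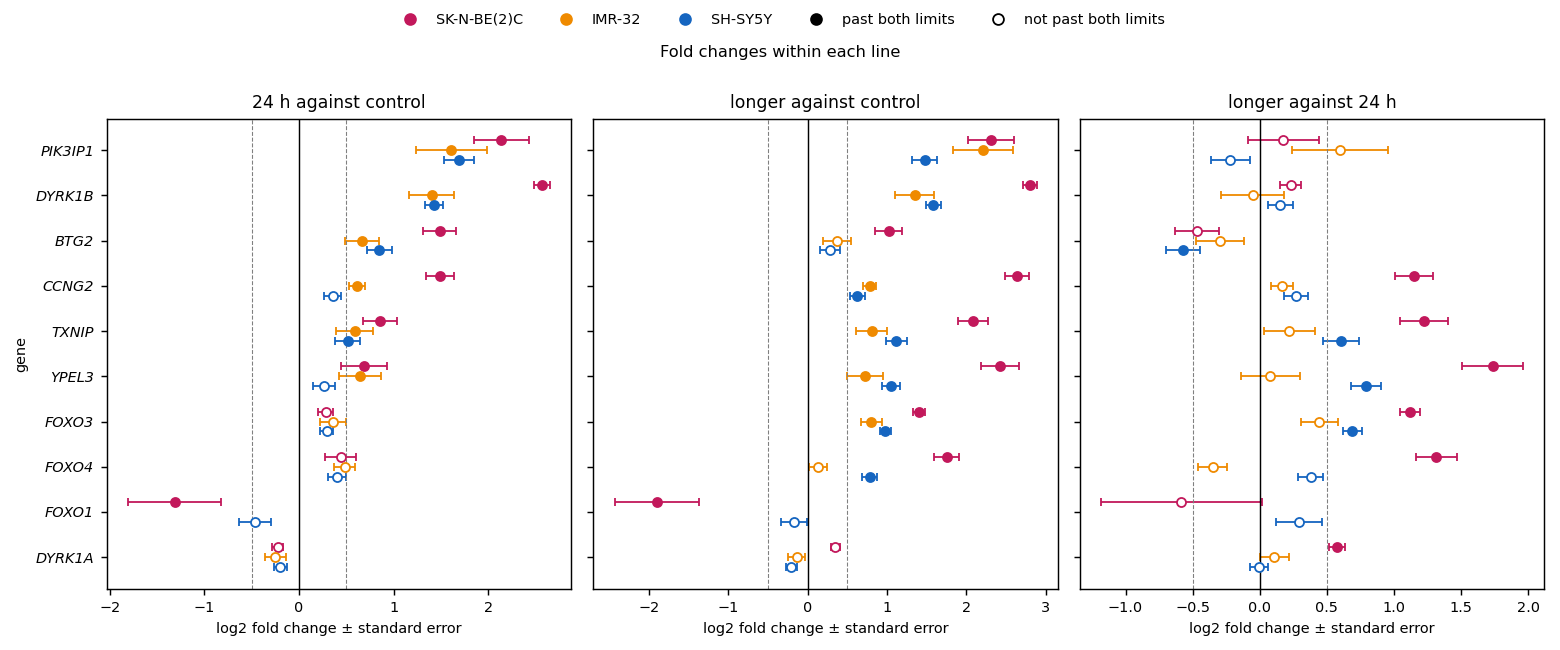
Log2 fold change ± standard error of each gene (rows) in each line (colour) in 3 panels, 24 h and longer treatment each against control and longer treatment against 24 h, with filled points past both limits and dashed lines at the fold limit. PIK3IP1 and DYRK1B lie near their longer-treatment change already at 24 h in SH-SY5Y and SK-N-BE(2)C, FOXO3, FOXO4, TXNIP, YPEL3 and CCNG2 move further right with the longer treatment in SK-N-BE(2)C, and BTG2 moves back, to a log2 fold change of -0.57 against 24 h in SH-SY5Y.

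PIK3IP1 (chr22:31677580-31688520, minus strand) encodes a transmembrane protein that binds the catalytic subunit of PI3K and inhibits it. PIK3IP1 in SH-SY5Y was at 2.41, 2.73, 3.39, 3.1 and 2.86 CPM in control libraries, at 9.61, 9.61, 7.53, 10.7 and 9.69 after 24 h and at 7.11, 7.03, 7.34, 11.3 and 9.42 after 5 d. PIK3IP1 in IMR-32 was at 3.18, 3.26, 2.5, 3.38 and 0.402 CPM in control libraries, at 9.04, 6.66, 7.88, 9.82 and 4.57 after 24 h and at 12.4, 15.97, 11.6, 13.9 and 5.94 after 5 d. PIK3IP1 in SK-N-BE(2)C was at 4.92, 3.38, 5.54, 5.28 and 5.46 CPM in control libraries, at 16.2, 13.4, 24.2, 28.6 and 28.2 after 24 h and at 11.5, 22.4, 37.9, 28.1 and 25.4 after 7 d. In every line each treated library was above each control, and 24 h and longer libraries overlapped. The log2 fold change at 24 h was 1.69 ± 0.16 (SE) in SH-SY5Y, 1.61 ± 0.38 in IMR-32 and 2.14 ± 0.29 in SK-N-BE(2)C. With longer treatment it was 1.47 ± 0.16, 2.21 ± 0.38 and 2.32 ± 0.29. The IMR-32 control of replicate 5 was far below its group, and without replicate 5 the IMR-32 values were 1.48 ± 0.15 at 24 h and 2.11 ± 0.14 at 5 d.

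The difference of PIK3IP1 between longer treatment and 24 h was smaller in size than its change from control in every line. It was -0.22 ± 0.14 in SH-SY5Y and 0.18 ± 0.26 in SK-N-BE(2)C on the log2 scale. In IMR-32 it was 0.60 ± 0.36, which was not called, whereas with the replicate number as a block it was 0.58 ± 0.19, and without replicate 5 it was 0.63 ± 0.13, both of which were called. Replicates 1 and 2 of SK-N-BE(2)C at 24 h, with the lowest PIK3IP1, had the highest summed level of cycling-cell genes in that group (755 and 776 CPM against 517 to 525). They also had the lowest sum of mesenchymal markers (534 and 533 CPM against 757 to 761). The part of either in the PIK3IP1 level was not tested. The annotated gene shares 36 exonic bases with PIK3IP1-DT on the opposite strand, and since the sources used here do not give the counted strand, reads from those bases cannot be assigned to either gene.

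DYRK1B (chr19:40315990-40324841, minus strand), a kinase known for holding cells in a resting state and for promoting the turnover of cyclin D1, was already near its longer-treatment level at 24 h. DYRK1B in SH-SY5Y was at 29.1, 42.2, 38.6, 30.8 and 26.8 CPM in control libraries, at 90.3, 95.3, 86.1, 91.3 and 91.5 after 24 h and at 113, 106, 107, 97.8 and 102 after 5 d. DYRK1B in IMR-32 was at 28.8, 33.3, 27.0, 34.6 and 9.71 CPM in control libraries, at 76.3, 74.1, 65.3, 69.0 and 55.8 after 24 h and at 80.6, 74.1, 64.8, 71.2 and 51.2 after 5 d. DYRK1B in SK-N-BE(2)C was at 12.3, 8.78, 13.4, 11.96 and 13.03 CPM in control libraries, at 69.8, 68.1, 76.4, 74.4 and 72.4 after 24 h and at 80.7, 85.9, 86.0, 89.1 and 85.0 after 7 d. No treated library overlapped the controls of its line. Controls of SK-N-BE(2)C were below those of SH-SY5Y. The log2 fold change at 24 h was 1.43 ± 0.095 in SH-SY5Y, 1.40 ± 0.24 in IMR-32 and 2.57 ± 0.085 in SK-N-BE(2)C. With longer treatment it was 1.58 ± 0.095, 1.35 ± 0.24 and 2.80 ± 0.086. Longer treatment differed from 24 h by 0.15 ± 0.091, -0.05 ± 0.24 and 0.23 ± 0.077, with every 5 d or 7 d library above every 24 h library in SH-SY5Y and SK-N-BE(2)C and overlapping ranges in IMR-32. Without IMR-32 replicate 5, whose control was lowest, its changes in that line were 1.26 ± 0.094 at 24 h and 1.22 ± 0.095 at 5 d. The gene shares 354 exonic bases with another annotated gene on the same strand.

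**Figure D2:**
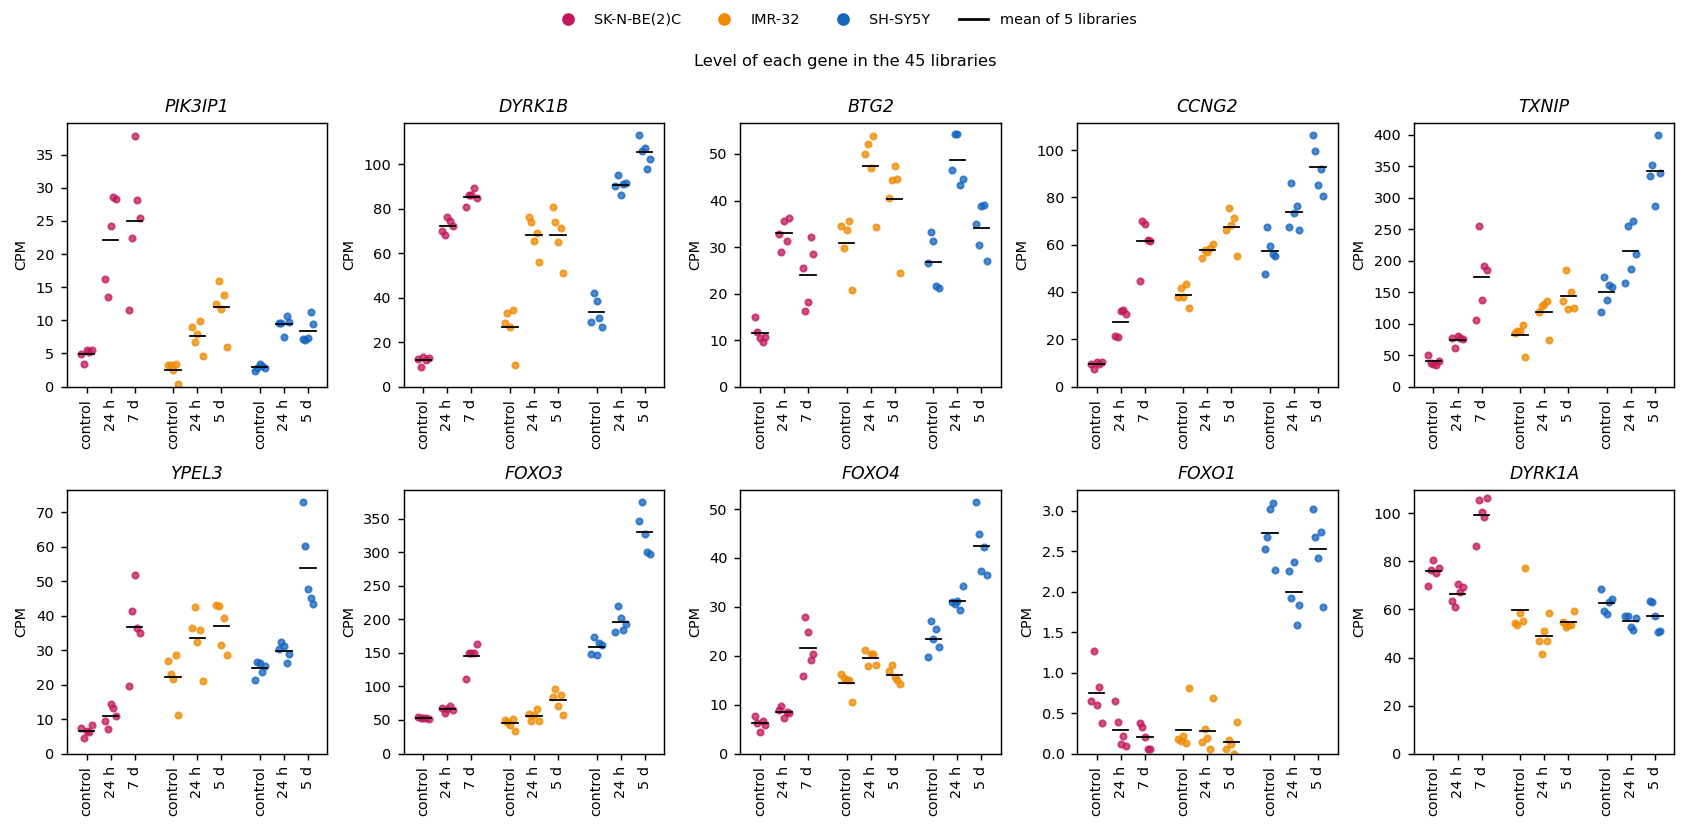
CPM of each gene (panels, linear axes from 0) in every library of the 3 lines as control, at 24 h and at 7 d or 5 d of PB, with points for the 5 libraries of a group and bars for their mean. DYRK1B and PIK3IP1 step up at 24 h, FOXO3, TXNIP and YPEL3 reach their highest means at the longer time in all 3 lines, BTG2 is highest at 24 h, and FOXO1 stays under 3.2 CPM.

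BTG2 (chr1:203274619-203278730, plus strand), an antiproliferative protein that binds the CCR4-NOT deadenylase, was highest at 24 h and then fell back in SH-SY5Y. BTG2 in SH-SY5Y was at 26.5, 33.3, 31.4, 21.6 and 21.2 CPM in control libraries, at 46.6, 54.4, 54.3, 43.4 and 44.6 after 24 h and at 35.0, 30.5, 38.9, 39.0 and 27.1 after 5 d. BTG2 in IMR-32 was at 34.6, 29.8, 33.6, 35.6 and 20.8 CPM in control libraries, at 49.9, 52.2, 47.0, 53.8 and 34.4 after 24 h and at 40.5, 44.4, 47.3, 44.7 and 24.4 after 5 d. BTG2 in SK-N-BE(2)C was at 14.9, 11.6, 10.4, 9.51 and 10.7 CPM in control libraries, at 32.8, 28.9, 35.6, 31.3 and 36.2 after 24 h and at 25.6, 16.1, 18.1, 32.05 and 28.4 after 7 d. Each 24 h library was above each control in SK-N-BE(2)C and SH-SY5Y. In IMR-32 the 24 h library of replicate 5 lay within the range of the controls.

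The log2 fold change of BTG2 at 24 h was 0.85 ± 0.13 in SH-SY5Y, 0.67 ± 0.18 in IMR-32 and 1.49 ± 0.17 in SK-N-BE(2)C, and all 3 were called. The IMR-32 call was lost without replicate 2 (0.60). With longer treatment BTG2 was called in SK-N-BE(2)C alone, at 1.02 ± 0.17 (edgeR adjusted p = 6.56e-05), and every 7 d library stayed above every control. In IMR-32 and SH-SY5Y it was 0.37 ± 0.18 (adjusted p = 0.0943) and 0.28 ± 0.13 (adjusted p = 0.0629), and the groups overlapped. The IMR-32 value was called, at 0.51, without 5 d replicate 5. From 24 h to 5 d in SH-SY5Y it fell by 0.57 ± 0.13 on the log2 scale (adjusted p = 0.00177), with every 5 d library below every 24 h library. That fall was -0.49 without replicate 2 and -0.48 without 5 d replicate 5, under the fold limit. The difference was -0.47 ± 0.17 (adjusted p = 0.0242) in SK-N-BE(2)C, under the fold limit, and -0.30 ± 0.18 (adjusted p = 0.211) in IMR-32. With the replicate number as a block the IMR-32 difference was -0.31 ± 0.080 (edgeR adjusted p = 0.00644), under the fold limit. The SK-N-BE(2)C difference was called, at -0.61 to -0.51, without replicate 4, 24 h replicate 2, 7 d replicate 4 or 7 d replicate 5. These comparisons share their control or 24 h libraries with the 24 h comparison.

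CCNG2 (chr4:78078360-78354542, plus strand), an unconventional cyclin that is higher in cells leaving the cycle, rose in all 3 lines with longer treatment. CCNG2 in SH-SY5Y was at 47.6, 67.6, 59.5, 56.1 and 55.3 CPM in control libraries, at 67.3, 85.9, 73.3, 76.2 and 66.3 after 24 h and at 106, 99.6, 85.3, 91.9 and 80.6 after 5 d. CCNG2 in IMR-32 was at 37.9, 41.7, 37.9, 43.3 and 33.3 CPM in control libraries, at 54.5, 57.8, 56.9, 58.8 and 60.1 after 24 h and at 66.4, 75.4, 68.4, 71.3 and 55.4 after 5 d. CCNG2 in SK-N-BE(2)C was at 9.69, 7.59, 10.5, 9.58 and 10.5 CPM in control libraries, at 21.4, 21.1, 32.1, 32.2 and 30.6 after 24 h and at 44.7, 69.8, 68.6, 62.2 and 61.5 after 7 d. Controls of SK-N-BE(2)C were lowest, and its 7 d libraries, except replicate 1 at 44.7 CPM, reached the range of the treated libraries of the other lines. Every library of the longer treatment was above every control of its line. The log2 fold change against control was 0.63 ± 0.092 in SH-SY5Y (adjusted p = 9.45e-06), 0.78 ± 0.084 in IMR-32 (adjusted p = 3.71e-06) and 2.64 ± 0.15 in SK-N-BE(2)C (adjusted p = 4.15e-10). At 24 h it had been 0.36 ± 0.092, 0.62 ± 0.084 and 1.49 ± 0.15. The further rise after 24 h was called in SK-N-BE(2)C, at 1.15 ± 0.14 (adjusted p = 3.68e-06), and not in SH-SY5Y, at 0.27 ± 0.091 (adjusted p = 0.0231, under the fold limit), or IMR-32, at 0.17 ± 0.083 (adjusted p = 0.13).

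TXNIP (chr1:145438490-145442635, plus strand) encodes an alpha-arrestin that binds thioredoxin and lowers glucose uptake. TXNIP in SH-SY5Y was at 118, 175, 137, 162 and 158 CPM in control libraries, at 164, 255, 186, 262 and 211 after 24 h and at 335, 351, 287, 399.9 and 339 after 5 d. TXNIP in IMR-32 was at 85.5, 88.8, 87.5, 98.3 and 46.2 CPM in control libraries, at 119, 128, 132, 136 and 74.5 after 24 h and at 136, 185, 123, 149.6 and 124 after 5 d. TXNIP in SK-N-BE(2)C was at 49.5, 38.2, 35.8, 34.8 and 40.8 CPM in control libraries, at 76.5, 60.9, 79.9, 76.9 and 75.8 after 24 h and at 105, 255, 138, 191 and 185 after 7 d. The 7 d libraries of SK-N-BE(2)C spread most, with replicate 1 lowest and replicate 2 highest, and still none overlapped the 24 h libraries. TXNIP rose with longer treatment in every line, by 1.12 ± 0.14 on the log2 scale in SH-SY5Y (adjusted p = 2.05e-06), 0.81 ± 0.19 in IMR-32 (adjusted p = 0.00271) and 2.08 ± 0.18 in SK-N-BE(2)C (adjusted p = 9.45e-08). Against 24 h it rose by 0.60 ± 0.13 in SH-SY5Y (adjusted p = 0.00193) and 1.23 ± 0.18 in SK-N-BE(2)C (adjusted p = 3.48e-05), whereas the IMR-32 difference of 0.22 ± 0.19 (adjusted p = 0.392) was not called. At 24 h the changes were 0.51 ± 0.13, 0.59 ± 0.19 and 0.86 ± 0.18. The call in SH-SY5Y rested on a value next to the fold limit (0.49 with DESeq2). That in IMR-32 was lost in 8 of 20 fits with libraries left out, among them without the control of replicate 5 (0.44) and without any of replicates 1 to 4.

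YPEL3 (chr16:30103635-30108236, minus strand), a small protein whose expression has been linked to growth arrest and senescence, rose in every line with longer treatment. YPEL3 in SH-SY5Y was at 21.4, 26.6, 26.3, 23.7 and 25.5 CPM in control libraries, at 30.4, 32.4, 31.2, 26.1 and 29.0 after 24 h and at 73.0, 60.1, 47.7, 45.1 and 43.4 after 5 d. YPEL3 in IMR-32 was at 26.9, 23.0, 21.6, 28.5 and 11.1 CPM in control libraries, at 36.3, 42.4, 32.3, 35.9 and 20.9 after 24 h and at 43.2, 42.8, 31.5, 39.3 and 28.6 after 5 d. YPEL3 in SK-N-BE(2)C was at 7.4, 4.65, 6.64, 6.39 and 8.27 CPM in control libraries, at 9.39, 7.15, 14.5, 13.1 and 11.01 after 24 h and at 19.6, 41.3, 51.7, 36.3 and 34.8 after 7 d. The 24 h libraries overlapped the controls in all 3 lines, and no library of the longer treatment did. YPEL3 rose by 1.05 ± 0.12 on the log2 scale in SH-SY5Y (adjusted p = 3.57e-07), 0.73 ± 0.22 in IMR-32 (adjusted p = 0.0137) and 2.42 ± 0.24 in SK-N-BE(2)C (adjusted p = 2.45e-07). The IMR-32 call was lost without replicate 2, where the log2 fold change was 0.68 and the edgeR adjusted p 0.052. Most of the change came after 24 h in SK-N-BE(2)C, at 1.73 ± 0.23 (adjusted p = 1.22e-05), and in SH-SY5Y, at 0.79 ± 0.11 (adjusted p = 4.86e-05). In IMR-32 the difference from 24 h was 0.08 ± 0.22 (adjusted p = 0.805). The 24 h changes were 0.26 ± 0.12, 0.65 ± 0.22 and 0.69 ± 0.24. YPEL3 shares 300 exonic bases with YPEL3-DT on the opposite strand.

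FOXO3 (chr6:108881038-109005977, plus strand), a FOXO factor known for keeping neural stem cells quiescent, was not called at 24 h in any line and rose in all 3 with longer treatment. FOXO3 in SH-SY5Y was at 148, 174, 147, 165 and 162 CPM in control libraries, at 181, 219.7, 202, 184 and 193 after 24 h and at 347, 375, 327, 301 and 297 after 5 d. FOXO3 in IMR-32 was at 50.002, 46.9, 43.2, 51.6 and 33.2 CPM in control libraries, at 58.6, 49.1, 58.2, 65.7 and 48.2 after 24 h and at 84.3, 95.9, 71.5, 86.6 and 57.7 after 5 d. FOXO3 in SK-N-BE(2)C was at 54.7, 53.3, 52.9, 53.2 and 51.6 CPM in control libraries, at 68.1, 60.2, 66.2, 71.0 and 64.9 after 24 h and at 111, 149, 150.2, 150.0 and 163 after 7 d. Libraries of the longer treatment were above the controls without overlap in every line, and above the 24 h libraries in SK-N-BE(2)C and SH-SY5Y. The log2 fold change against control was 0.98 ± 0.072 in SH-SY5Y (adjusted p = 3.9e-09), 0.81 ± 0.14 in IMR-32 (adjusted p = 0.00019) and 1.40 ± 0.077 in SK-N-BE(2)C (adjusted p = 2.49e-10). Against 24 h it was 0.69 ± 0.072 (adjusted p = 2.34e-06), 0.44 ± 0.13 (adjusted p = 0.0186, under the fold limit) and 1.12 ± 0.076 (adjusted p = 1.15e-08). The IMR-32 difference from 24 h was called without 24 h replicate 4 (0.50) or 5 d replicate 5 (0.54). The 24 h changes were 0.29 ± 0.072, 0.36 ± 0.14 and 0.28 ± 0.076. FOXO3 has a near-identical copy, FOXO3B, and how reads were split between them is uncertain. With longer treatment FOXO3B fell in SH-SY5Y, where FOXO3 rose, at -0.87 ± 0.11 (adjusted p = 2e-06), and it was 0.30 ± 0.17 in IMR-32 and 0.36 ± 0.11 in SK-N-BE(2)C.

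FOXO4 (chrX:70315701-70323382, plus strand) rose in SK-N-BE(2)C and SH-SY5Y with longer treatment but was not called in IMR-32, where its 24 h change lay just under the fold limit. FOXO4 in SH-SY5Y was at 19.7, 27.0, 23.4, 25.6 and 21.8 CPM in control libraries, at 31.0, 30.5, 31.2, 29.4 and 34.3 after 24 h and at 51.5, 44.8, 37.4, 42.1 and 36.6 after 5 d. FOXO4 in IMR-32 was at 16.2, 15.5, 15.1, 15.002 and 10.5 CPM in control libraries, at 21.3, 17.9, 20.4, 20.3 and 18.0 after 24 h and at 16.8, 18.2, 15.7, 14.96 and 14.2 after 5 d. FOXO4 in SK-N-BE(2)C was at 7.77, 6.32, 4.39, 6.69 and 5.84 CPM in control libraries, at 8.99, 9.63, 7.3, 8.59 and 8.39 after 24 h and at 15.8, 27.9, 24.8, 19.2 and 20.3 after 7 d. In IMR-32 the 24 h libraries were all above the controls and the 5 d libraries overlapped them again. The change with longer treatment was 0.78 ± 0.095 in SH-SY5Y (adjusted p = 1.04e-06) and 1.76 ± 0.16 (adjusted p = 5.43e-08) in SK-N-BE(2)C, against 0.13 ± 0.11 in IMR-32 (adjusted p = 0.322). From 24 h on, it rose by 1.316 ± 0.15 (adjusted p = 2.63e-06) in SK-N-BE(2)C and stood at 0.38 ± 0.094 in SH-SY5Y (adjusted p = 0.00337) and -0.35 ± 0.11 in IMR-32 (adjusted p = 0.0207), both under the fold limit. At 24 h the changes were 0.40 ± 0.10, 0.48 ± 0.11 and 0.44 ± 0.16, with none past the fold limit. The 24 h change in IMR-32 was called, at 0.50 to 0.52, without replicate 2, control replicate 1, control replicate 2 or 24 h replicate 5. In SK-N-BE(2)C it was called without replicate 1 (0.51) or control replicate 1 (0.54).

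FOXO1 (chr13:41129804-41240778, minus strand) was the lowest in counts of the members, with 30 to 65 counts a library in SH-SY5Y, 0 to 14 in IMR-32 and 1 to 29 in SK-N-BE(2)C. FOXO1 in SK-N-BE(2)C was at 0.655, 1.27, 0.599, 0.817 and 0.378 CPM in control libraries, at 0.649, 0.393, 0.121, 0.223 and 0.097 after 24 h and at 0.379, 0.324, 0.21, 0.0567 and 0.0551 after 7 d. In IMR-32 the 3 groups averaged 0.295 ± 0.287, 0.278 ± 0.247 and 0.146 ± 0.151 CPM (SD, n = 5), with replicate 5 highest in each. In SH-SY5Y they averaged 2.72 ± 0.344, 2.00 ± 0.317 and 2.53 ± 0.458 CPM (SD, n = 5). In SK-N-BE(2)C it had 7 to 29 counts in the controls and 1 to 6 at 7 d, so it passed the filter through the group where it is high, and its log2 fold change of -1.90 ± 0.53 is given as a description, with no test. The 7 d value of replicate 1 overlapped the lowest control. At 24 h the change there was -1.31 ± 0.49, a call lost when any of replicates 2 to 5 was left out. The SH-SY5Y change with 5 d was -0.17 ± 0.16 (adjusted p = 0.365). FOXO1 shares 1352 exonic bases with another annotated gene on its strand.

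DYRK1A (chr21:38737875-38898660, plus strand) stayed within the fold limit against control at both times in every line. Controls, 24 h and longer libraries averaged 75.8 ± 3.995, 66.3 ± 4.14 and 99.5 ± 8.07 CPM in SK-N-BE(2)C (SD, n = 5). The averages were 59.8 ± 9.99, 48.9 ± 6.35 and 54.8 ± 2.64 CPM in IMR-32 and 62.6 ± 4.16, 55.1 ± 2.75 and 57.1 ± 6.22 CPM in SH-SY5Y (SD, n = 5). Levels at 24 h were slightly under control in all 3 lines, at -0.20 ± 0.068, -0.25 ± 0.11 and -0.23 ± 0.059 on the log2 scale. In SK-N-BE(2)C DYRK1A then rose by 0.57 ± 0.059 from 24 h to 7 d (adjusted p = 6.69e-07), and each 7 d library was above each control, at 0.35 ± 0.059 (adjusted p = 5.57e-05), under the fold limit. With 5 d of PB it was -0.14 ± 0.11 against control in IMR-32 (adjusted p = 0.295) and -0.20 ± 0.068 in SH-SY5Y (adjusted p = 0.0138). Other annotated genes overlap 446 of its exonic bases on the opposite strand and 234 on its own. DYRK1A and DYRK1B, though related kinases, thus had different values in the same libraries.

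A fit over all 45 libraries tested whether the response to longer treatment differed between the 3 lines in the 7 members other than PIK3IP1 and DYRK1B that passed the filter in every line. All 7 had an adjusted p under 0.05, beside 52.4% of 16282 genes tested. Values ran from 6.73e-13 (CCNG2) and 7.17e-09 (FOXO4) through 2.75e-05 (YPEL3), 0.000168 (DYRK1A), 0.000183 (TXNIP) and 0.0015 (FOXO3) to 0.0206 (BTG2). The fold change of each of these genes was highest in SK-N-BE(2)C, whose longer treatment was also 7 d. Between IMR-32 and SH-SY5Y, both treated for 5 d, FOXO4 alone had an adjusted p under 0.05, with a difference of -0.71 ± 0.17 on the log2 scale (IMR-32 minus SH-SY5Y, adjusted p = 0.00165), where 30.6% of all genes did. The other 6 had edgeR adjusted p-values of 0.221 to 1, and differences between -0.39 ± 0.29 (YPEL3) and 0.096 ± 0.16 (CCNG2). The BTG2 difference over the 3 lines was lost without replicate 4 (adjusted p = 0.126).

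In SK-N-BE(2)C at 7 d, replicate 1 had the lowest CPM of its group for PIK3IP1, DYRK1A, DYRK1B, CCNG2, FOXO3, FOXO4, TXNIP and YPEL3, and its summed cycling-cell genes were the highest at 1162 CPM, against 491 to 925 in the others. Without that library the log2 fold changes at 7 d were 2.56 ± 0.20 for YPEL3, 2.21 ± 0.15 for TXNIP, 1.47 ± 0.052 for FOXO3 and 1.83 ± 0.15 for FOXO4. BTG2 ran the other way there: its lowest values, 16.1 and 18.1 CPM, were in replicates 2 and 3, in which the cycling-cell genes were lowest at 498 and 491 CPM. In SH-SY5Y at 5 d, the summed cycling-cell genes were 282, 464, 686, 817 and 983 CPM in replicates 1 to 5. The highest values of YPEL3, FOXO4 and CCNG2 were in replicate 1 and the lowest in replicate 5. FOXO1 had its highest and lowest values in the same replicates. The other 6 members had another order, with PIK3IP1, TXNIP and BTG2 highest in replicate 4, FOXO3 and DYRK1A lowest in replicates 4 and 5, and DYRK1B highest in replicate 1 and lowest in replicate 4. The part of cycling cells in these levels was not tested, and in bulk RNA a changed share of cells and a changed level per cell cannot be told apart. All 10 cycling-cell genes were called lower at 24 h in every line, beside 11.0%, 10.5% and 10.6% of all genes in SH-SY5Y, IMR-32 and SK-N-BE(2)C. With longer treatment 10, 8 and 10 of 10 were called lower, beside 17.3%, 15.5% and 22.3% of all genes. From 24 h on, 7, 10 and 0 of them were called higher, beside 10.5%, 10.8% and 17.5% of all genes.

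**Figure D3:**
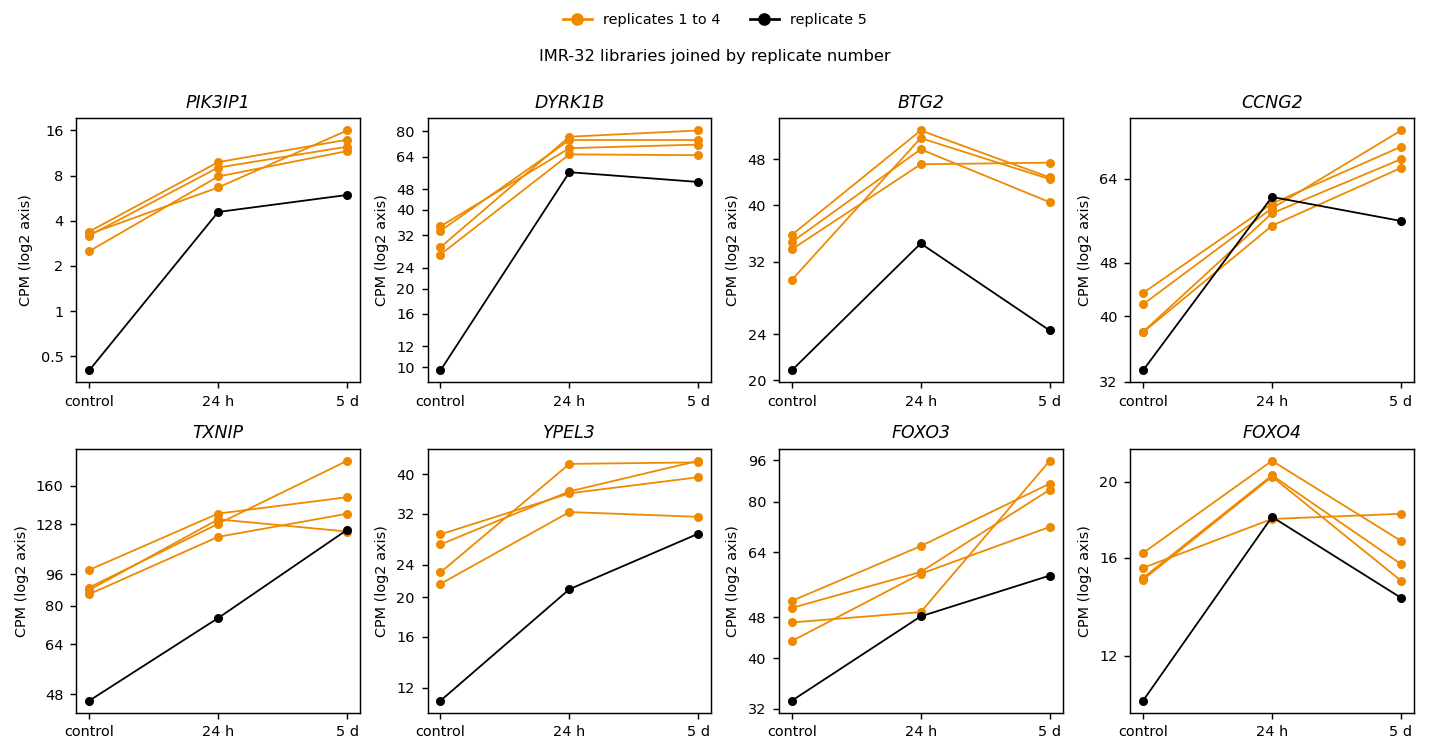
CPM (log2 axis) of 8 of the genes in IMR-32 as control, at 24 h and at 5 d of PB, with the libraries of 1 replicate number joined by a line and replicate 5 in black. Replicate 5 starts lowest in every panel, for example at 0.402 CPM of PIK3IP1 against 2.50 to 3.38 in the others.

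In IMR-32, replicate 5 had the lowest control level of the 8 members plotted and the highest of FOXO1 and DYRK1A. Without it, the log2 changes at 5 d were 0.80 ± 0.070 for CCNG2, 0.81 ± 0.092 for FOXO3, 0.71 ± 0.099 for TXNIP and 0.64 ± 0.12 for YPEL3, and each was still called. FOXO4 was 0.079 ± 0.085 and BTG2 0.40 ± 0.081, and neither was called. At 24 h the changes without replicate 5 were 0.56 ± 0.070 for CCNG2, 0.57 ± 0.099 for TXNIP, 0.61 ± 0.12 for YPEL3 and 0.66 ± 0.081 for BTG2, and 0.33 ± 0.092 for FOXO3 and 0.42 ± 0.084 for FOXO4, under the fold limit. DYRK1A was -0.20 ± 0.066 at 24 h and -0.054 ± 0.066 at 5 d without it. The number of members called without replicate 5 was 6 at 24 h and 6 at 5 d, as with it.

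The other 4 YPEL genes, small zinc-binding proteins related to YPEL3, were mostly higher with longer treatment. Of those tested, 4 of 4 were called higher in SH-SY5Y, 2 of 4 in IMR-32 and 3 of 3 in SK-N-BE(2)C, and none lower, beside 18.6%, 16.6% and 24.5% of all genes called higher, with median log2 fold changes of 1.81, 0.61 and 2.16. The counts were the same with either other scaling of the libraries. YPEL5 rose by 1.60 ± 0.12, 0.94 ± 0.15 and 1.999 ± 0.092 (edgeR adjusted p = 4.7e-09, 0.000151 and 4.61e-11). YPEL2 rose by 2.01 ± 0.21 in SH-SY5Y and 2.16 ± 0.15 in SK-N-BE(2)C and was -0.02 ± 0.11 in IMR-32 (adjusted p = 0.901). YPEL4 had only 1 to 24 counts in the IMR-32 controls and 67 to 215 at 5 d, a change of 3.89 ± 0.49 (adjusted p = 1.7e-05). YPEL1 was 0.56 ± 0.10, 0.27 ± 0.25 and 2.63 ± 0.35. At 24 h, 3 of 4, 1 of 4 and 2 of 3 of these genes were called higher, beside 10.5%, 7.87% and 10.9% of all genes.

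Among 27 genes described as FOXO targets, 8 were called higher and 5 lower of 21 tested in SH-SY5Y with longer treatment, 6 and 3 of 22 in IMR-32, and 6 and 4 of 24 in SK-N-BE(2)C. Of all genes tested, 18.6%, 16.6% and 24.5% were called higher and 17.3%, 15.5% and 22.3% lower in these lines, and the counts of the list in SK-N-BE(2)C were near these shares. Their median log2 fold changes were 0.19, 0.14 and -0.07. BBC3, a proapoptotic BH3-only gene, rose by 0.79 ± 0.11, 1.81 ± 0.32 and 2.64 ± 0.25 (adjusted p = 8.12e-06, 0.000341 and 1.67e-07). PINK1, a kinase of mitochondrial quality control, rose by 1.25 ± 0.085, 0.999 ± 0.13 and 1.31 ± 0.095, and MAP1LC3B, an autophagosome protein, by 0.82 ± 0.066, 0.89 ± 0.12 and 1.28 ± 0.062, and all were called. Catalase, CAT, fell, at -0.63 ± 0.075, -0.69 ± 0.12 and -0.64 ± 0.066 on the log2 scale (adjusted p = 9.43e-07, 0.000218 and 2.45e-07). Of the FOXO genes that are not members, FOXO6 was called higher in SH-SY5Y alone, at 1.18 ± 0.18 (adjusted p = 1.41e-05). At 24 h, 6, 5 and 7 of the FOXO targets tested were called higher, beside 10.5%, 7.87% and 10.9% of all genes. In that comparison 1, 1 and 3 were called lower, beside 11.0%, 10.5% and 10.6%.

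Of the genes of PI3K and AKT signalling, which acts on FOXO proteins from upstream, 3 were called higher and 4 lower of 23 in SH-SY5Y with longer treatment, 4 and 2 of 21 in IMR-32, and 7 and 3 of 22 in SK-N-BE(2)C, with medians of 0.12, 0.23 and 0.26, against the same shares of all genes (18.6% and 17.3%, 16.6% and 15.5%, 24.5% and 22.3%). IRS1, the insulin receptor substrate, fell, at -1.61 ± 0.17, -0.86 ± 0.12 and -0.78 ± 0.092 on the log2 scale (adjusted p = 2.54e-07, 4.82e-05 and 1.01e-06), and it was already called lower at 24 h in each line. PIK3R1, the main regulatory subunit of PI3K, rose by 0.77 ± 0.11 in IMR-32 and 1.91 ± 0.12 in SK-N-BE(2)C and was 0.48 ± 0.086 in SH-SY5Y. PIK3CD, a catalytic subunit, rose by 2.06 ± 0.23 in SH-SY5Y. In SK-N-BE(2)C it passed the filter through the 7 d group, so its 2.95 ± 0.41 there is a description, with no test. PHLPP1, a phosphatase that acts on AKT, fell, at -1.13 ± 0.21 in IMR-32 and -0.80 ± 0.11 in SH-SY5Y on the log2 scale. SGK1, a kinase that also phosphorylates FOXO3, rose in SK-N-BE(2)C, at 0.95 ± 0.12 (adjusted p = 2.33e-06), and fell in SH-SY5Y, at -1.78 ± 0.27 (adjusted p = 5.29e-05).

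Of 6 DYRK relatives and partners tested, 0 were called higher and 1, 2 and 1 lower in SH-SY5Y, IMR-32 and SK-N-BE(2)C with longer treatment. DYRK2 fell, at -0.73 ± 0.067 in SH-SY5Y and -0.79 ± 0.08 in SK-N-BE(2)C on the log2 scale, and DYRK3 and LATS2, a Hippo pathway kinase, were called lower in IMR-32, where LATS2 passed the filter through its controls and nothing is read from its call. Of 11 DREAM genes, 3, 1 and 1 were called higher and 4, 3 and 3 lower. With lists of this size, these counts are to be read against 18.6%, 16.6% and 24.5% of all genes called higher and 17.3%, 15.5% and 22.3% lower. RBL1 (p107) fell, at -2.01 ± 0.16, -1.13 ± 0.18 and -2.16 ± 0.13 on the log2 scale (adjusted p = 9.86e-09, 0.000115 and 7.99e-10). Of the DP subunits, TFDP1 fell, at -0.86 ± 0.092 in SH-SY5Y and -0.75 ± 0.086 in SK-N-BE(2)C, whereas TFDP2 rose by 0.67 ± 0.06 and 1.09 ± 0.063. LIN37, a MuvB subunit, rose by 0.58 ± 0.14 in IMR-32 and 0.93 ± 0.10 in SH-SY5Y. At 24 h, 6, 5 and 5 of the 11 DREAM genes were called lower, beside 11.0%, 10.5% and 10.6% of all genes. In that comparison 1, 2 and 2 were called higher, beside 10.5%, 7.87% and 10.9%.

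Around TXNIP, 3 of 11 thioredoxin and alpha-arrestin genes were called higher and 0 lower in SH-SY5Y, 2 and 0 of 11 in IMR-32, and 2 and 4 of 10 in SK-N-BE(2)C with longer treatment, beside 18.6% and 17.3%, 16.6% and 15.5%, and 24.5% and 22.3% of all genes. ARRDC4, the alpha-arrestin closest to TXNIP in its control by glucose, rose by 1.19 ± 0.11, 0.67 ± 0.12 and 2.39 ± 0.16 (adjusted p = 2.94e-08, 0.000274 and 4.56e-09). ARRDC1 rose by 1.37 ± 0.13, 1.15 ± 0.40 and 1.20 ± 0.12. ARRDC2 fell in SK-N-BE(2)C, at -0.82 ± 0.13, and rose in SH-SY5Y, at 0.51 ± 0.12, and ARRDC3 and TXNRD1 (thioredoxin reductase) fell in SK-N-BE(2)C, at -1.19 ± 0.11 and -0.62 ± 0.08.

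Around BTG2, 1 of 11 genes of the BTG and TOB family and the CCR4-NOT deadenylase was called higher and 1 lower in SH-SY5Y, 2 and 1 in IMR-32, and 1 and 5 in SK-N-BE(2)C, beside 18.6% and 17.3%, 16.6% and 15.5%, and 24.5% and 22.3% of all genes. BTG1 rose by 1.40 ± 0.15, 0.74 ± 0.11 and 1.89 ± 0.10 (adjusted p = 6.93e-07, 5.31e-05 and 1.43e-10), while BTG3 fell, at -0.80 ± 0.14 in IMR-32 and -1.003 ± 0.11 in SK-N-BE(2)C on the log2 scale. CNOT1, the scaffold of the deadenylase, fell, at -0.57 ± 0.08 in SH-SY5Y and -0.54 ± 0.061 in SK-N-BE(2)C, and its catalytic subunit CNOT7, at -0.68 ± 0.061 in SK-N-BE(2)C. CCNG1, the relative of CCNG2, fell by 0.53 ± 0.083 on the log2 scale in SK-N-BE(2)C, and CCNI was 0.19 ± 0.063, 0.13 ± 0.10 and 0.25 ± 0.065 with no call.

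**Figure D4:**
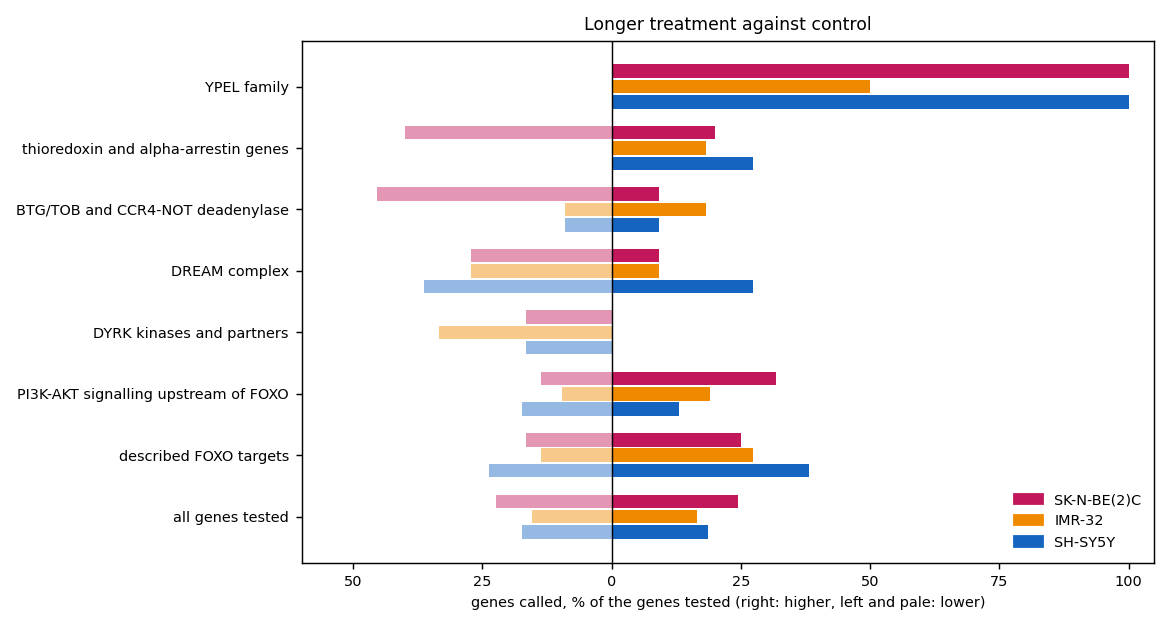
Share of the genes tested in each list (rows) called higher (right) or lower (left, pale) with longer treatment against control, as % of the genes tested, by line, with all genes tested at the bottom. The YPEL genes other than YPEL3 were called higher in 4 of 4 (SH-SY5Y), 2 of 4 (IMR-32) and 3 of 3 (SK-N-BE(2)C) cases and none lower, while every other list shown has genes called lower in at least 1 line.

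Likeness between genes was measured as the mean, over the 3 lines, of the Pearson correlation of log2 CPM over the 15 libraries of a line, among about 12555 genes tested in all lines. The libraries of a line fall into the same 3 groups for every gene and differ in depth, so these values are descriptions. The genes most like PIK3IP1 were GAA (0.97) and RAB40B (0.95), and the one most like DYRK1B was MXD4 (0.98). For CCNG2 they were KLHL24 (0.96) and ZER1 (0.95), for TXNIP RALGDS (0.95) and TDRP (0.95), and for YPEL3 RETREG2 (0.95) and PRAF2 (0.94). FOXO3 was closest to CASTOR3 (0.97) and MZF1 (0.96), and FOXO4 to TBC1D17 (0.93) and ZSWIM4 (0.92). BTG2 reached 0.88 with MKNK2 and MOSPD3, DYRK1A 0.85 with SLC7A11 and ZEB2, and FOXO1 0.75 with GCLM and 0.73 with PCDH20. Among the members themselves, PIK3IP1 was most like DYRK1B (0.94), and FOXO3 was most like YPEL3 and TXNIP (0.91 with each). BTG2 and FOXO3 reached 0.34, and FOXO1 had a negative mean with 8 of the other 9 members, the exception being DYRK1A (0.25). That mean includes IMR-32, where FOXO1 did not pass the filter. In SH-SY5Y alone FOXO1 was near 0 with some of them, at 0.067 with YPEL3, -0.077 with FOXO3 and -0.099 with FOXO4.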

How the data were processed

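RNA-seq libraries of SH-SY5Y, IMR-32 and SK-N-BE(2)C (control, 24 h PB, longer PB, n = 5 each) were analysed. The authors used TrimGalore for trimming and STAR for alignment to hg19 and gene counting, and deposited raw counts for each line. The sources used here do not give the counted strand. The submitters' processing notes name Trim Galore 0.6.4, STAR 2.6.1d and DESeq2 1.32.0. The CPM values deposited by the authors scale each library to its total, and recomputing them from the counts gave differences of at most 4.7e-11. Tables of the authors' own fold changes and p-values from DESeq2 were not used.

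Counts were fitted with edgeR 4.0.16 under R 4.3.3 (TMM normalization, filterByExpr with at least 10 counts, 15 in total and a share of 70%, robust quasi-likelihood F test), the 15 libraries of a line together, with 1 mean per group. This left 14547, 14293 and 14055 of 29159 genes in SH-SY5Y, IMR-32 and SK-N-BE(2)C, and the fit was tested on simulated data. The standard error of a log2 fold change was taken as its size over the root of its F. CPM values printed are not adjusted by TMM. Log2 CPM for likeness used a prior count of 2. Alternatives were DESeq2 1.42.0, other size factors, other filters, no limit on the fold change, only the groups compared, a replicate block and leaving out each library or replicate number. Reads of a pair carry no molecular identifiers, so depth covers counting error only.

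The members and lists were chosen with earlier results of these data known. Of each list, up to 4 genes were named, those called in the same direction in the most lines with longer treatment, with any called in opposite directions. The result of 1 list, 1 gene by likeness and 1 property of a line are not reported here. With group means taken out, same-numbered libraries correlated at no less than 0.109 for every pair of groups in IMR-32 and SH-SY5Y and 0.243 in SK-N-BE(2)C for 24 h with control, but down to 0.0482 for pairs with 7 d there. Positions are from GENCODE release 44 on GRCh37.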

Additional observations from a re-analysis of the deposited data

Results flagged for a closer look

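Within 8 of 90 groups of 5 libraries, 1 library lay far from the other 4, past a limit that about 1 in 20 independent groups would pass by chance. The groups of different genes share their libraries, and several of the 8 were IMR-32 replicate 5, so the count cannot be set against that rate. In the IMR-32 controls it was replicate 5 for DYRK1A (77.4 CPM, next 58.4), FOXO1 (0.804, next 0.218), FOXO4 (10.5, next 15.002) and TXNIP (46.2, next 85.5), and TXNIP was low in the same replicate at 24 h (74.5, next 119 CPM). In SK-N-BE(2)C it was PIK3IP1 in control replicate 2 (3.38, next 4.92 CPM), TXNIP in 24 h replicate 2 (60.9, next 75.8 CPM) and FOXO3 in 7 d replicate 1 (111, next 149 CPM).

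The response to longer treatment differed between the 3 lines by a test of the difference itself (edgeR, adjusted over 16282 genes) for CCNG2 (adjusted p = 6.73e-13), FOXO4 (7.17e-09), YPEL3 (2.75e-05), DYRK1A (0.000168), TXNIP (0.000183), FOXO3 (0.0015), BTG2 (0.0206) and FOXO1 (0.0491). FOXO1 did not pass the filter on low counts in IMR-32 and entered this test through the other lines, so nothing is read from its value, which was also lost without replicate 1, 2, 3 or 4 (adjusted p 0.0708 to 0.183). For SK-N-BE(2)C the line and the 7 d of treatment cannot be told apart.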

How the results depend on the processing

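Of the member fold changes under all alternatives, 2312 kept their direction and side of the limits, 61 lost their call, 39 gained one and 16 changed sign, none of them called. All 16 were differences from 24 h near 0. In SH-SY5Y, DYRK1A was 0.0055 with RLE size factors, 0.054 with library size alone, 0.013 without a filter, 0.0023 with a filter of 1 CPM in 5 libraries, 0.0058 with DESeq2, and -0.029 to 0.062 with libraries left out. DYRK1B in IMR-32 was 0.0060 with library size alone and -0.12 to 0.033 with libraries left out, which gave -0.053 to 0.20 for YPEL3 in IMR-32 and -0.023 to 0.35 for PIK3IP1 in SK-N-BE(2)C. The difference of IMR-32 minus SH-SY5Y ranged from -0.052 to 0.044 (DYRK1A) and -0.14 to 0.17 (BTG2). FOXO1 could not be fitted in SK-N-BE(2)C without replicate 1, where it did not pass the filter. Without a limit on the fold change, members called at 24 h in SH-SY5Y went from 4 to 9, and those called between 5 d and 24 h in IMR-32 from 0 to 2. That IMR-32 count was 1 with library size alone (FOXO3) and 1 with the replicate block (PIK3IP1, 0.58, and 0.63 without replicate 5), and the block changed no other call among 87 member results. Leaving out a library or a replicate number gave 0 to 1 there. With libraries left out in the same way the counts were 3 to 5, 4 to 7 and 5 to 7 at 24 h, 7 to 7, 5 to 7 and 8 to 9 with longer treatment, and 3 to 4, 0 to 1 and 6 to 7 against 24 h, in the order SH-SY5Y, IMR-32 and SK-N-BE(2)C. The calls most often lost were at 24 h: FOXO1 and YPEL3 in SK-N-BE(2)C, TXNIP and YPEL3 in IMR-32 and TXNIP in SH-SY5Y, and BTG2 in IMR-32 lost its 24 h call without replicate 2 (0.60). FOXO1 in SH-SY5Y was called lower at 24 h, at -0.55 to -0.51, without replicate 1, replicate 5, control replicate 5, 24 h replicate 1 or 24 h replicate 3. The cause of these changes was not tested. FOXO1, at 0 to 65 counts a library, is limited by depth.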
